A study of Homo sapiens with 4 samples.

Results

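TXNIP and its relatives ARRDC1, ARRDC2, ARRDC3 and ARRDC4 are the alpha-arrestins of the human genome that are described here, 5 genes found by symbol among the 59652 genes of the count table. The rule that defines them is family membership and uses no measured value, although earlier results of these data were known when the family was picked. The data are RNA sequencing of Huh7 and PLC cells, both human hepatocellular carcinoma lines of wild-type (WT) genotype. Both were grown in glucose-free DMEM with fetal bovine serum and antibiotics, to which glucose was added at 5 mM (low glucose) or 25 mM (high glucose) for 48 h. Each line at each concentration gave 1 library, so no difference between the 4 libraries has a replicate check, and every interval below covers counting error only. In RNA from bulk cultures, fewer cells that express a gene and less RNA of it per cell cannot be told apart.

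Alpha-arrestins are adaptor proteins with an arrestin fold that bring ubiquitin ligases of the NEDD4 family to membrane proteins, which are then internalised. TXNIP is best known among them: it binds thioredoxin, lowers glucose uptake by promoting endocytosis of glucose transporters, and in liver and other tissues its transcription is raised by glucose through the Mondo factors MondoA (MLXIP) and ChREBP (MLXIPL) with their partner MLX. ARRDC4 is its closest relative and is also a Mondo target that lowers glucose uptake. ARRDC1 takes part in the budding of vesicles from the plasma membrane together with TSG101, and ARRDC3 acts on integrin beta4.

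The libraries held between 16049686 and 30279716 counted reads, and the floor of 3 reads corresponded to between 0.0991 and 0.187 CPM (the count scaled to the library total). Even counts were in excess in all 4 libraries, between 62.8% and 64.0% of the genes with 1 to 10 reads, and the cause was not tested. Intervals are therefore given from the reads as counted, and also from counts divided by 2, which is what they would be if both mates of a pair had been counted. Of 9 hepatocyte and epithelial markers, none was at or below the floor in Huh7 cells. In PLC cells TTR had 4 and 0 reads and EPCAM 4 and 2 reads at 5 and 25 mM, so these defining markers were absent or nearly absent from that line. Summed over the 9 genes, the marker level was 5059 and 5175 FPKM (the count scaled to gene length and library total) in Huh7 cells and 982 and 1772 FPKM in PLC cells. The 10 markers of immune, endothelial and fibroblast cells summed to 9.08 and 8.43 FPKM in Huh7 cells, most of it LUM and PECAM1, and to 0.217 and 0.406 FPKM in PLC cells. The part of these marker differences in the results below was not tested.

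TXNIP (ENSG00000265972) lies on chromosome 1 from 145992435 to 145996579 on the minus strand of GRCh38, and no other annotated gene overlaps it. Its proximal promoter is shown because it carries a motif of the kind the Mondo factors bind, a carbohydrate response element made of a pair of E-box-like sites 5 bases apart. All sequences are from RefSeq promoters on GRCh38.p14, which reach from 250 bases before to 50 bases after a start. They read 5′ to 3′ on the strand of the gene, and capitals mark the motif. The pair, searched on both strands as CACGNG, any 5 bases and CACGNG again, stood 88 to 72 bases before the TXNIP start, at chr1:145996644-145996673 with its flanks. CCAAT boxes, searched as CCAAT on both strands, stood at chr1:145996702-145996731 and chr1:145996667-145996696.
TXNIP, paired sites: gatgtgCACGAGggcagCACGAGcctccgg
TXNIP, distal CCAAT box: gcgatctcactgATTGGtcgggctcctggt
TXNIP, proximal CCAAT box: aggaccgggcagCCAATgggagggatgtgc
The TXNIP pair was matched by 20 of 35116 promoters of the RefSeq table, or 0.057%, and by no other promoter of the 5 members, of which there were 8.

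ARRDC4 (ENSG00000140450), on the plus strand of chromosome 15 from 97960703 to 97973833, had no such pair in its promoter window. It had 1 full E-box, searched as CACGTG, which is shown because both sites of a carbohydrate response element resemble it. The box stood 210 to 205 bases before the start, at chr15:97960481-97960510.
ARRDC4, E-box: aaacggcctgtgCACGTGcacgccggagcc
An E-box, which is one form of a CACGNG site, was found in 7.26% of all promoters. ARRDC4 also had 3 CCAAT boxes, a motif that 34.6% of all promoters held. ARRDC1, ARRDC2 and ARRDC3 each had 1 CCAAT box in 1 promoter and no E-box. The inverted arrangement, CACGNG, any 5 bases and CNCGTG, was in 0.0228% of all promoters and in none of the members. A match describes letters in a window and does not show that a factor binds there.

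The level of TXNIP in Huh7 cells at 25 mM glucose stood apart from its level in the other 3 libraries. TXNIP was counted 8 and 439 times in Huh7 cells at 5 and 25 mM (0.104 and 4.05 FPKM). In PLC cells it was counted 26 and 18 times at 5 and 25 mM (0.238 and 0.311 FPKM). The 95% counting interval of the Huh7 level at 25 mM ran from 3.68 to 4.45 FPKM, whereas the highest upper bound of the other 3 libraries was 0.492 FPKM. The other 3 libraries were all under 0.5 FPKM, the minimum in the criterion of the study for glucose-related lncRNAs.

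ARRDC3 was the leading member in Huh7 cells at both concentrations. ARRDC3 (ENSG00000113369), on the minus strand of chromosome 5 from 91368631 to 91383317, had 1867 and 3097 reads in Huh7 cells at 5 and 25 mM (17.5 and 20.7 FPKM) and 719 and 337 reads in PLC cells (4.76 and 4.21 FPKM). The antisense gene ARRDC3-AS1 shares 145 bases of exon with it and had between 56 and 91 reads per library. Reads from both strands are kept apart by the directional kit, but the strand setting of the counting is not given in the sources used here, so a share of antisense reads in ARRDC3 cannot be told apart.

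ARRDC1 (ENSG00000197070), on the plus strand of chromosome 9 from 137605685 to 137615360, had a moderate level in all 4 libraries. It was counted 148 and 337 times in Huh7 cells at 5 and 25 mM (1.83 and 2.96 FPKM) and 437 and 305 times in PLC cells (3.81 and 5.01 FPKM). ARRDC1-AS1 shares 29 bases of exon with it on the other strand, and at 4.65, 4.17, 3.596 and 3.585 FPKM in the same order this antisense gene was not higher at 25 mM in Huh7 cells, where ARRDC1 was.

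ARRDC2 separated the lines. This gene (ENSG00000105643), on the plus strand of chromosome 19 from 18001132 to 18014102, had 10 and 20 reads in Huh7 cells at 5 and 25 mM (0.101 and 0.143 FPKM) and 772 and 510 reads in PLC cells (5.50 and 6.85 FPKM). Both Huh7 libraries were under 0.5 FPKM and both PLC libraries were far over it.

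ARRDC4 had 0 and 4 reads in Huh7 cells at 5 and 25 mM (0 and 0.0327 FPKM), against 60 and 64 reads in PLC cells (0.488 and 0.982 FPKM). The 4 reads at 25 mM were 0.133 CPM, under the floor of the shallower Huh7 library at 0.1403 CPM. Even against that floor they give no higher level, and no fold is stated for Huh7 cells. ARRDC5, the remaining alpha-arrestin gene, had 2 reads in PLC cells at 25 mM and 0 in the other 3 libraries.

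The order of the members differed between the lines. In Huh7 cells at 5 mM ARRDC3 was followed by ARRDC1, and then by TXNIP and ARRDC2, whose intervals of 0.0448 to 0.205 and 0.0484 to 0.186 FPKM overlapped. At 25 mM TXNIP was second after ARRDC3, and its interval did not overlap that of ARRDC1, which ran from 2.65 to 3.29 FPKM. In PLC cells at 5 mM ARRDC2, ARRDC3 and ARRDC1 came first, and the intervals of ARRDC2 (5.12 to 5.90 FPKM) and ARRDC3 (4.42 to 5.13 FPKM) just overlapped. At 25 mM ARRDC2 led in PLC cells, followed by ARRDC1 (4.47 to 5.61 FPKM) and ARRDC3 (3.77 to 4.69 FPKM), which also overlapped. TXNIP was last of the 5 in both PLC libraries.

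Added up, the 5 genes reached 19.6 and 27.8 FPKM in Huh7 cells and 14.8 and 17.4 FPKM in PLC cells at 5 and 25 mM. In Huh7 cells ARRDC3 made up 89.6% and 74.2% of that sum. TXNIP went from 0.531% to 14.6% of the sum in the same cells. In PLC cells TXNIP stayed at 1.61% and 1.79%, ARRDC2 made up 37.2% and 39.5%, and ARRDC1 25.7% and 28.9%.

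**Figure D1:**
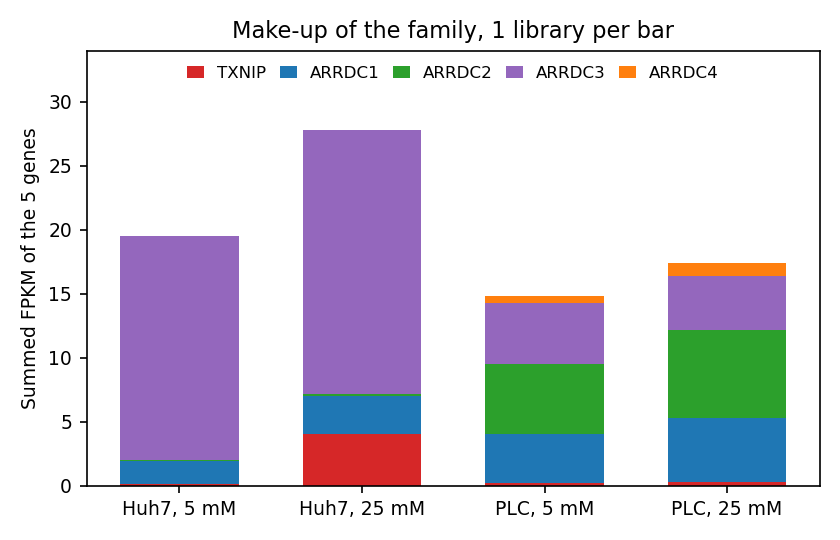
Summed FPKM of the 5 genes (y axis) in each library (x axis), 1 library per bar, with colours for the genes. Huh7 bars are mostly ARRDC3 (89.6% and 74.2%), TXNIP is visible as a broad band only at 25 mM in Huh7 cells, and PLC bars are shared by ARRDC1, ARRDC2 and ARRDC3.

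The main question of the design was which genes differed between high and low glucose within a line. Ratios of 25 mM to 5 mM were set against thresholds of 0.5 for FPKM and of 1.5 and 0.67 for the ratio. These cut-offs are those used for lncRNAs in the study, which does not name the library that has to reach the minimum. Here at least 1 library had to, and 0.1 was added to both FPKM values. In Huh7 cells 3 of the 5 members were over 0.5 FPKM, and 2 of these 3, TXNIP and ARRDC1, were past the thresholds, both higher at 25 mM. With FPKM over 0.5 in both libraries ARRDC1 alone was. Among all 21864 genes over 0.5 FPKM in that line, 14.1% were past them as higher, 13.7% as lower and 27.8% in either direction. In PLC cells 4 of the 5 were over 0.5 FPKM and 1 of these 4, ARRDC4, was past the thresholds, also as higher (0 with FPKM over 0.5 in both libraries), beside 26.2% of 21749 genes as higher, 17% as lower and 43.3% in either direction. Counts of 2 among 3 and 1 among 4 genes are too small to be set apart from these shares.

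TXNIP was 20.4 times higher at 25 mM than at 5 mM in Huh7 cells with the constant added. Without it the ratio was 39.0, with an interval of 19.6 to 90.9 from the reads and 15.0 to 144 from counts divided by 2. With the constant, TXNIP ranked 1 of 11794 protein-coding genes in Huh7 cells and 53 of all 21864 genes, and the median ratio of the protein-coding genes was 1.03. It also ranked 1 of the protein-coding genes with 1 added in place of 0.1, and 1 of 11720 when 20 or more reads were asked for in at least 1 of both libraries, where the next highest ratio was 6.62, of EPO. The 8 reads at 5 mM set the precision of this ratio.

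In PLC cells TXNIP showed a ratio of 1.22, or 1.31 without the constant. Its interval of 0.675 to 2.48 included 1. With 26 and 18 reads a difference was not detectable at this depth, and a ratio as high as in Huh7 cells lay outside the interval.

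The ratio of ARRDC1 was 1.59 in Huh7 cells (1.62 without the constant, interval 1.33 to 1.98, or 1.22 to 2.16 from counts divided by 2). In PLC cells it was 1.31 (1.32 without the constant, interval 1.13 to 1.53), under the threshold. Both intervals lay above 1, and ARRDC1 ranked 508 of the protein-coding genes in Huh7 cells and 3279 of 11795 in PLC cells, so many genes had higher ratios.

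ARRDC4, the close relative of TXNIP, was 1.84 times higher at 25 mM in PLC cells (2.01 without the constant, interval 1.39 to 2.91, or 1.18 to 3.43 from counts divided by 2). It ranked 1221 of 11795 protein-coding genes there. Of the 7 hepatocyte and epithelial markers over 0.5 FPKM in PLC cells, 3 were past the thresholds as higher too, beside 26.2% of all genes. These markers were APOA1 (3.46), AFP (3.30) and SERPINA1 (2.34). Their part in the result for ARRDC4 was not tested.

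ARRDC3 had the smallest ratio in Huh7 cells, 1.18, but with its many reads the interval of 1.11 to 1.25 excluded 1. In PLC cells the ratio was 0.887, with an interval of 0.775 to 1.01. ARRDC2 had a ratio of 1.24 in PLC cells (interval of the ratio without the constant 1.11 to 1.40). In Huh7 cells its ratio of 1.21 came from 10 and 20 reads, and the interval of 0.635 to 3.40 included 1.

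By the interval alone, all 3 members over 0.5 FPKM excluded 1 in Huh7 cells (TXNIP, ARRDC1 and ARRDC3, all higher), beside 25% of all genes over 0.5 FPKM as higher and 44.4% in either direction. In PLC cells 3 of 4 did (ARRDC1, ARRDC2 and ARRDC4, all higher), beside 33.2% and 55.9%. From counts divided by 2 these 3 in each line still excluded 1, beside 30.1% of all genes in Huh7 cells and 43.4% in PLC cells in either direction. TXNIP in Huh7 cells and ARRDC4 in PLC cells passed 0.5 FPKM only at 25 mM, so they could enter these counts only as higher. Counts of 3 among 3 and 3 among 4 genes are too small to be set apart from the shares of all genes. The scaling mattered in PLC cells. Scaling by TMM or by the size factors of DESeq2 in place of library totals lowered every log2 ratio by 0.12 or 0.13 there. Of all genes past the thresholds in PLC cells, 5709 were higher and 3700 lower by library totals, against 4804 and 4560 with TMM and 4734 and 4648 with DESeq2. With TMM the interval of ARRDC3 in PLC cells ran from 0.713 to 0.927 and excluded 1, while those of ARRDC1 and ARRDC2 excluded 1 from the reads (lower bounds 1.04 and 1.02) but not from counts divided by 2 (0.978 and 0.975). TXNIP and ARRDC4 were on the same side of 1 under all 3 scalings.

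Whether the lines shared a change was asked with edgeR's quasi-likelihood test on the counts, with cell line as a covariate. This fit has 1 residual degree of freedom, and the lines are not replicate cultures. After Benjamini-Hochberg adjustment over 23217 genes, 0 of the 5 members passed an adjusted p of 0.05, beside 0.379% of all genes. TXNIP came nearest, with a shared log2 fold change of 2.74 ± 0.89 (SE), an unadjusted p of 0.00849 and an adjusted p of 0.288 in edgeR's test. It was the 1 member with an unadjusted p under 0.05, beside 8.51% of all genes. Its fitted fold change rested on Huh7 cells, where the ratio without the constant was 39.0. In PLC cells that ratio was 1.31, with an interval of 0.675 to 2.48. ARRDC4 had a log2 fold change of 1.17 ± 0.71, ARRDC1 0.46 ± 0.31, ARRDC2 0.28 ± 0.34 and ARRDC3 -0.04 ± 0.24, with adjusted p between 0.757 and 0.992 in edgeR's test. DESeq2 and limma also called 0 members. Without the filter on low counts edgeR called TXNIP (adjusted p = 7.09e-05), and over the alternatives its adjusted p ranged up to 1.

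Whether the lines differed in their response could not be tested with 1 library each, and the ratio of both ratios is given as a value. For TXNIP the Huh7 ratio was 29.9 times the PLC ratio (interval 10.97 to 85.1, or 7.05 to 143 from counts divided by 2). For ARRDC3 it was 1.33 times (1.15 to 1.54, or 1.09 to 1.64), and the lines lay on opposite sides of 1. The intervals of ARRDC1 (1.23, 0.958 to 1.58) and ARRDC2 (1.14, 0.504 to 2.75) included 1, and ARRDC4 has no value because of its 0 reads.

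**Figure D2:**
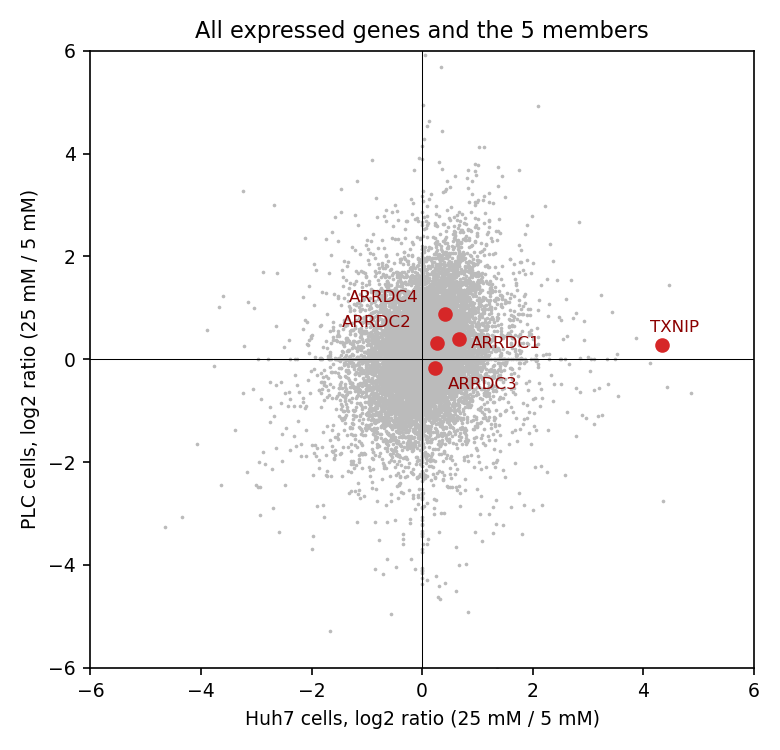
Log2 ratio of 25 mM to 5 mM in Huh7 cells (x axis) and PLC cells (y axis), 0.1 added to both FPKM values. Shown are 20118 genes with at least 20 reads in the highest library and over 0.5 FPKM in at least 1 library. Outside the axes lie 3 genes, and red points are the 5 alpha-arrestins. TXNIP lies at 4.35 and 0.28, at the right edge of the cloud, and the other 4 lie inside it. The place of ARRDC4 on the x axis comes from 0 and 4 reads with the constant added and gives no fold.

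The same 4 libraries also give the comparison of the lines at equal glucose, which shares its libraries with the ratios above. At 5 mM 3 members were over 0.5 FPKM in at least 1 line, and all 3 were past the thresholds (1 higher in Huh7 cells and 2 lower). Of all genes 35.7% were past them as higher in Huh7 cells, 31.1% as lower and 66.8% in either direction. At 25 mM all 5 were (2 higher and 3 lower), beside 32%, 33% and 65% of all genes. ARRDC2 at both concentrations, and TXNIP and ARRDC4 at 25 mM, were over 0.5 FPKM in 1 line only. Each of them could thus pass only as higher in that line. Counts of 3 among 3 and 5 among 5 genes are too small to be set apart from these shares. ARRDC2 was 54.5 times higher in PLC than in Huh7 cells at 5 mM (interval 29.5 to 114) and 47.8 times at 25 mM (30.6 to 78.9). ARRDC4 was at least 14.1-fold higher in PLC cells at 5 mM, taking the floor of 3 reads for the Huh7 library with 0 (the lower end of the exact interval was 11.1, or 5.40 from counts divided by 2), and 29.99 times higher at 25 mM (11.2 to 113). Its 4 reads in Huh7 cells set the width of that interval. ARRDC3 went the other way, 3.68 times higher in Huh7 cells at 5 mM (3.37 to 4.01) and 4.90 times at 25 mM (4.38 to 5.50). ARRDC1 was 2.08 and 1.70 times higher in PLC cells. The order of the lines turned for TXNIP, which was 13.01 times higher in Huh7 cells at 25 mM (8.14 to 22.2) but 2.29 times higher in PLC cells at 5 mM, where the interval of 1.01 to 5.86 was 0.709 to 9.66 from counts divided by 2.

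Genes with the pattern most like each member were sought among 9779 genes with at least 100 reads in every library, by the Euclidean distance of log2(FPKM + 0.1) centred over the 4 libraries. TXNIP, ARRDC2 and ARRDC4 would not pass this minimum themselves, and genes that, like TXNIP, have few reads in most libraries were left out by it. Within this pool the nearest to TXNIP were SIX4 (distance 2.22), PXMP4 (2.35), CHCHD7 (2.44), SLC6A6 (2.49) and PALM (2.49). SIX4, a homeobox factor, had 0.884 and 2.54 FPKM in Huh7 cells at 5 and 25 mM and 0.834 and 1.26 FPKM in PLC cells, a far smaller difference than that of TXNIP. Closest to ARRDC3 were SKI (0.0920), NEK6 (0.0963) and MIR600HG (0.142), and to ARRDC1 DNM1 (0.0705), DYRK3 (0.102) and CLCN2 (0.1398). Those nearest to ARRDC2 were CPT1A (0.462), which encodes the carnitine palmitoyltransferase of the mitochondrial outer membrane, CNTN1 (0.4998) and LITAF (0.559). ARRDC4 was nearest to CARMIL1 (0.149), the small heat shock protein gene HSPB1 (0.272) and NETO2 (0.323). With 4 points per gene, likeness of pattern is a description of these libraries.

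Of the Mondo factors, MLXIP and its partner MLX were over 0.5 FPKM in all 4 libraries, while MLXIPL was near that level in PLC cells. MLXIP was counted 1725 and 2679 times in Huh7 cells at 5 and 25 mM and then 1588 and 659 times in PLC cells, and MLX had 891, 1137, 1105 and 627 reads in the same order. MLXIPL, the ChREBP gene, had 762 and 801 reads in Huh7 cells but 38 and 44 in PLC cells, or 7.403, 5.53, 0.261 and 0.569 FPKM. Of the 12 genes of the Mondo and MAX network, 3 were past the thresholds as higher and 2 as lower in Huh7 cells. The shares of all genes were 14.1% and 13.7%. In PLC cells 3 and 3 of 11 genes of the network were past them, beside 26.2% and 17% of all genes. The median log2 ratio of the network was -0.11 in Huh7 and -0.34 in PLC cells, beside 0.04 and 0.11 over all genes over 0.5 FPKM. MXD4 and MXD3, which encode partners of MAX that repress transcription, were higher in both lines, with ratios of 1.54 and 3.68 for MXD4 and 1.59 and 1.56 for MXD3. MYC (0.633 and 0.546) and MXD1 (0.665 and 0.561) were lower in both. No gene of this list passed an adjusted p of 0.05 in edgeR's test of the shared change, and 5 had an unadjusted p under 0.05, beside 8.51% of all genes.

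Each of the other Mondo targets listed had a smaller ratio than TXNIP in Huh7 cells. For those over 0.5 FPKM this was fixed in advance by the rank of TXNIP, 1 of the protein-coding genes in that line. Of 18 listed targets, 14 were over 0.5 FPKM in Huh7 cells, of which 1 was higher and 3 were lower, with a median log2 ratio of -0.19. In PLC cells, where TXNIP was low, 8 of 15 were higher and 3 lower, with a median of 0.62. Of all genes over 0.5 FPKM in Huh7 cells, 14.1% were higher and 13.7% were lower, with a median of 0.04. The same values for PLC cells were 26.2%, 17% and 0.11. All list counts were made with library totals and were not repeated with other scalings. TMM or DESeq2 scaling lowers log2 ratios in PLC cells by 0.12 or 0.13. The lowest ratios among the 8 higher targets there, 1.537 and 1.555, lay close to the threshold of 1.5. KHK, the fructokinase gene, was higher in both lines (1.62 and 1.98). ME1, the malic enzyme gene, was lower in both (0.658 and 0.538), as was GCKR, which encodes the regulator of glucokinase (0.561 and 0.538). ME1 and GCKR belong to the 3 lower targets in PLC cells, where 8 of 15 were higher. PKLR had the highest ratio of the list in PLC cells, 3.07, from 308 and 512 reads. GPD1, for glycerol-3-phosphate dehydrogenase, was counted 42 and 30 times in Huh7 cells and then 49 and 61 times in PLC cells, with ratios of 0.588 and 2.09. None of the 18 passed the adjusted p of edgeR's test, and of the 17 tested 4 had an unadjusted p under 0.05, beside 8.51% of all genes.

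The paired motif of the TXNIP promoter was also followed in all genes that hold it, with TXNIP itself counted among the 20. Of the 20 genes, 19 were in the table, and 16 were over 0.5 FPKM in Huh7 cells. TXNIP, RCN3 (1.80) and P4HA1 (1.63) were past the thresholds as higher, MYL5 (0.625) as lower, and the median ratio was 1.09. Apart from TXNIP, whose promoter the motif comes from, only RCN3 and P4HA1 were higher in Huh7 cells. Of all genes over 0.5 FPKM in that line 14.1% were higher and 13.7% lower, with a median of 1.03. In PLC cells 4 of 15 genes with the motif were higher and 1, GFPT1 (0.594), was lower, with a median of 1.16. The values over all genes there were 26.2%, 17% and 1.08. Besides TXNIP, the highest ratio of a gene with these letters in Huh7 cells was that of RCN3.

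The genes for partners of the alpha-arrestin proteins are read beside the 27.8% of all genes past the thresholds in either direction in Huh7 cells and the 43.3% in PLC cells. Of the 11 genes of the thioredoxin system, Huh7 cells had 0 and PLC cells 2 past them, TXNRD1 as lower (0.234) and PRDX1 as higher (1.51). TXN, whose product is bound by TXNIP, was counted 8489 and 9261 times in Huh7 cells and then 8202 and 2967 times in PLC cells, with ratios of 0.775 and 0.683. Of 9 NEDD4-family ligases, 0 passed in Huh7 cells and 1 of the 8 expressed in PLC cells did, WWP1 (0.924 in Huh7 and 1.99 in PLC cells). In the thioredoxin list 2 genes and in the ligase list 1 gene had an unadjusted p under 0.05 in edgeR's test. The share over all genes was 8.51%, and no gene of either list passed after adjustment. Other genes with an arrestin fold gave 0 of 5 in Huh7 cells and 1 of 6 in PLC cells, ARRB1 (1.92), which encodes a beta-arrestin, and none of them had an unadjusted p under 0.05 in edgeR's test.

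Of 13 cargoes and partners of the family, 11 were tested with edgeR's quasi-likelihood test. After Benjamini-Hochberg adjustment 2 of these passed, both lower at 25 mM, beside 0.314% of all genes tested that passed as lower. DDIT4, whose product REDD1 binds TXNIP and restrains mTORC1, was counted 400 and 73 times at 5 and 25 mM in Huh7 cells and then 1937 and 248 times in PLC cells. The shared log2 fold change of DDIT4 was -2.55 ± 0.31 with an adjusted p of 0.00287 in edgeR's test, and it was lower in both lines. SLC2A3, the glucose transporter GLUT3, had 14848 and 1629 reads in PLC cells but 2 and 2 in Huh7 cells, and its value of -2.29 ± 0.33 (adjusted p = 0.00940 in edgeR's test) rests on PLC cells. By the thresholds 0 of the 9 genes of this list over 0.5 FPKM in Huh7 cells were higher and 1 was lower. The shares of all genes there were 14.1% and 13.7%. In PLC cells 2 of 11 were higher and 3 lower, beside 26.2% and 17% of all genes. SLC2A1, the GLUT1 gene, had ratios of 1.25 in Huh7 and 0.641 in PLC cells.

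The AMPK kinase phosphorylates TXNIP, and its subunit genes gave 0 of 6 past the thresholds in Huh7 cells. Among the 6 in the other line PRKAA1 was higher (1.81), and PRKAG2 (0.499) and PRKAB2 (0.564) were lower. Of 15 genes in a list of FoxO factors, the glucocorticoid receptor and genes that respond to them, 1 was higher and 2 were lower in Huh7 cells, and 2 and 4 of 14 in PLC cells, beside 14.1% and 13.7% of all genes in Huh7 and 26.2% and 17% in PLC cells. The lower ones in Huh7 cells were IRS2 (0.398) and FOXO1 (0.578). FOXO1 was also lower in PLC cells (0.539), with FOXO3 (0.350), NR3C1 (0.570) and KLF15 (0.517). The higher ones were SESN3 (1.54) in Huh7 cells, and FKBP5 (1.97) and PIK3IP1 (1.87) in PLC cells. In edgeR's test none of these genes passed after adjustment, and 2 of 6 AMPK genes and 5 of the other 15 had an unadjusted p under 0.05, beside 8.51% of all genes.

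**Figure D3:**
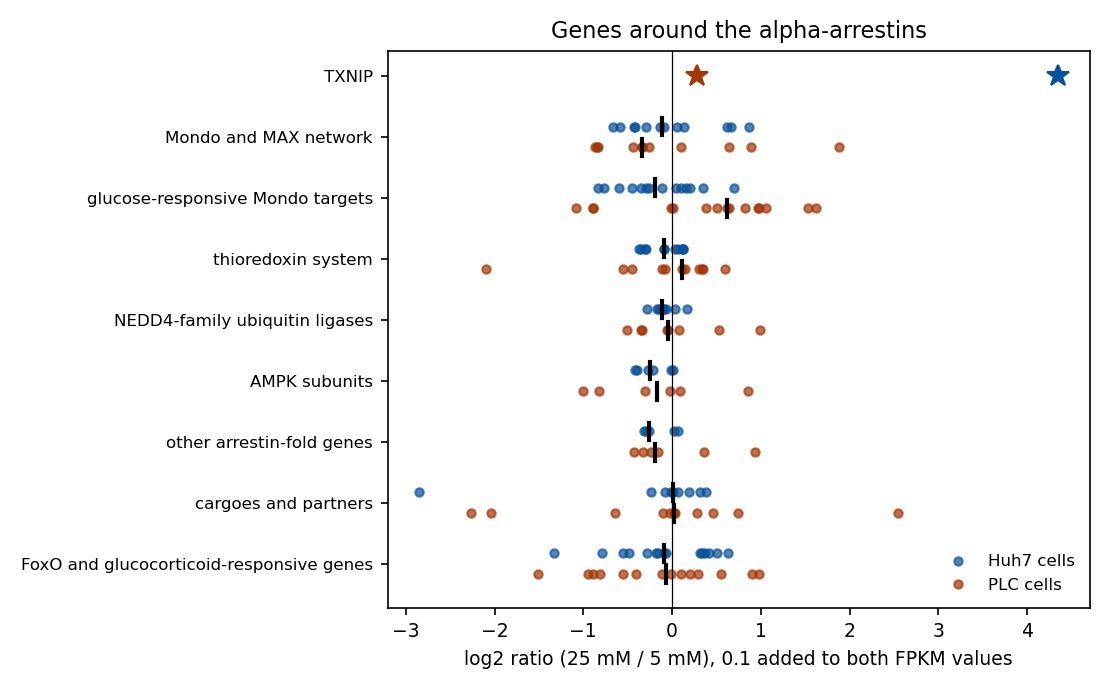
Log2 ratio of 25 mM to 5 mM with 0.1 added to both FPKM values (x axis) of the genes over 0.5 FPKM in each list (y axis), blue for Huh7 and brown for PLC cells; black bars are medians of a list and stars are TXNIP. TXNIP in Huh7 cells (4.35) lies to the right of every gene of the 8 lists. For the Huh7 values this follows from its rank of 1 among the protein-coding genes.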

How the data were processed

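Total RNA of 2 lines at 2 glucose concentrations was depleted of rRNA and made into directional libraries. The authors deposited whole-number counts of reads per gene without normalization, and their processing notes name HISAT2, featureCounts and hg38. The annotation release, the strand setting and whether pairs or mates were counted are not given in the sources used here. Of 59657 lines, 59652 were used, and 5 broken lines of ANK2 were left out. Groups came from the sample labels.

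FPKM was computed from the counts, the gene lengths of the table and the library totals. Intervals of ratios are exact Clopper-Pearson 95% intervals, those of levels exact Poisson, and those of ratios of ratios exact conditional, all without the constant. A change shared by the lines was tested with edgeR 4.0.16 (filterByExpr, TMM, glmQLFTest, Benjamini-Hochberg) in R 4.3.3, and the code was tested on simulated data. Gene classes came from GENCODE 44 by gene symbol, and 38605 of the 59652 genes were matched. Genes without a match are not in the ranks among protein-coding genes. RefSeq promoters matched 5 of 5 members.

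Named genes are the members, ARRDC5, overlapping and antisense genes, up to 4 genes per list (those past edgeR's threshold, else those with the largest mean absolute log2 ratio among genes with at least 20 reads in every library), and the nearest patterns. MLXIP, MLXIPL, MLX, SLC2A1, EPO, PKLR, NR3C1, SESN3, FKBP5, PIK3IP1, the genes with the paired motif and the markers were named outside this rule. They were named after their values were seen. Members and lists were chosen with earlier results of these data known.

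Alternatives were constants of 0 and 1, other FPKM and ratio thresholds, TMM and DESeq2 scaling, RLE factors, other count filters, no line covariate, DESeq2 1.42.0 and limma 3.58.1. Intervals from counts divided by 2 or with other scalings were chosen after seeing the data.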

Additional observations from a re-analysis of the deposited data

Results flagged for a closer look

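Between the lines, ARRDC3 lay on opposite sides of 1, with a Huh7 ratio that was 1.33 times its PLC ratio. So did 31 of the 77 genes of the lists (markers aside) that were over 0.5 FPKM in both lines. In 15 of these both counting intervals excluded 1, which the PLC interval of ARRDC3 (0.775 to 1.01) did not. These intervals used reads as counted and library totals, without counts divided by 2 or other scalings. Some ended close to 1, as for NEDD4 in Huh7 cells (0.886 to 0.9994) and TXNRD3 in PLC cells (1.03 to 1.58). Whether the lines differ was not tested, with 1 library each. Of these 15 genes, the report gives values for 8. The Huh7 ratio was 0.635 times the PLC ratio for ARRB2, a beta-arrestin gene, 0.281 times for GPD1, 0.619 times for the thioredoxin reductase gene TXNRD3, 0.464 times for the ubiquitin ligase gene WWP1 and 0.653 times for NEDD4, which encodes another. It was 0.404 times for MLXIPL, 1.40 times for MLXIP and 1.95 times for SLC2A1. Among genes with the paired motif it was 0.322 times for MYL5 and 1.89 times for GFPT1.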

How the results depend on the processing

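Of 131 alternative values, 111 were labelled as unchanged. For ratios this label meant a value inside the counting interval, and for numbers of genes a similar size. For fitted changes it meant the same direction and side of the adjusted p threshold. The interval is built without the constant, so ratios with nothing added lie inside it by construction. A ratio could keep the label and cross a threshold, as ARRDC1 did in Huh7 cells with 1 added (1.399, from 1.586). With 1 added to both FPKM values the TXNIP ratio in Huh7 cells was 4.57 and the ARRDC4 ratio in PLC cells 1.33. In Huh7 cells 1 member in place of 2 was past the thresholds with 1 added, with FPKM over 0.5 in both libraries, or with a ratio over 2 or under 0.5. In PLC cells the number was 0 in place of 1 under these and with FPKM over 1. For the shared change, 15 genes were higher and 73 lower; the numbers were 242 and 284 without a filter on low counts, where TXNIP was called with a log2 fold change of 2.73, and 0 and 27 with at least 10 counts in every library, a filter that removed TXNIP and ARRDC4 and left 16164 genes. They were 71 and 126 with DESeq2. Without the cell line covariate, which pairs the libraries of a line, both were 0, with 52 genes at an unadjusted p under 0.05. The log2 fold change of ARRDC3 changed sign to 0.10 without this covariate and to 0.0095 with limma, both far smaller than their SE. Except where construction shows it, the cause of these moves was not tested. With 1 library for each line and glucose concentration no replicate could be left out. Low counts limit TXNIP at 5 mM and in PLC cells, and ARRDC2 and ARRDC4 in Huh7 cells.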
